A study of Mus musculus with 8 samples.

Results

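In SN4741 cells, 1208 promoter regions were called as open in 4 of 4 ATAC-seq libraries at 37C and in 0 of 4 at 39C. To find them, the peaks of all 8 libraries were merged wherever they overlapped by at least 1 bp, which gave 98066 regions, and regions within 1 kb of any transcription start site (TSS) of the GENCODE M21 annotation counted as promoter regions. Of 23707 promoter regions, 1208 met the rule, which is 5.1%, against 5.22% of all merged regions (5120 of 98066). In the opposite direction, 11 promoter regions were called in 4 of 4 libraries at 39C and 0 of 4 at 37C, which is 0.0464%. The regions were chosen by their calls in all 8 libraries, so the difference between temperatures is how they were defined, nothing is read from its size, and every value of that contrast below is a description with no test.

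SN4741 is a clonal neural precursor line made from mouse embryonic substantia nigra, and it carries a temperature-sensitive T antigen driven by a tyrosine hydroxylase promoter. The 4 libraries labelled 37C came from cells at the permissive temperature in 10% fetal bovine serum, and the 4 labelled 39C came from cells kept for 48 h at the non-permissive temperature in 0.5% serum. All 8 libraries carried the same WT genotype label and were each made from 50000 cells with 12 cycles of amplification. Temperature, serum and the activity of the T antigen changed together and cannot be told apart, and the study describes the line as polyploid. The labels do not say whether the 4 libraries of a group came from separate cultures, so the spread between them may be technical.

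ATAC-seq reads open chromatin through a transposase that inserts adapters where DNA is not wrapped in nucleosomes. Most promoters of widely used genes lie in CpG islands, which are open in nearly every cell type, whereas promoters of tissue-specific genes are often poor in CpG and open only where an activating factor binds. A gene can also have several promoters, and an annotation lists starts of short or partial transcripts beside the start that is mainly used. A peak caller sets a threshold, so a region without a call can still hold some open chromatin below it. In bulk cells, fewer cells open at a region and less opening in each cell cannot be told apart.

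The label was checked against markers. Of 10 neural precursor markers, 8 had a promoter region and 7 of them had one called in all 8 libraries, while of 8 mesenchymal markers, 7 had a promoter region and all 7 had one called in all 8. Of 14 dopaminergic neuron markers, 11 had a promoter region and 7 had one called in all 8. For endothelial, epithelial, immune and skeletal muscle markers this held for 1 of 3, 1 of 4, 1 of 2 and 1 of 2 with a promoter region. No share over all genes is given here, but by region 16198 of 23707 promoter regions were called in all 8. Mesenchymal markers were called at least as often as neural precursor ones, so the counts do not tell these identities apart. The markers among the genes described here were Msi1 (neural precursor), Col1a2 (mesenchymal) and Kdr (endothelial), with mean fold enrichments at 37C of 2.81, 4.63 and 2.85, and Kdr alone was left without a promoter call at 39C. Expression was not measured by these libraries.

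The 6 windows below are shown because they lie at the best-placed regions, those with the strongest peaks relative to their own lists, that touch no annotated untranslated region. Each is 201 bases around the median summit, on the plus strand of GRCm38 (mm10) from RefSeq, with motif matches in capitals. The motifs are spelled out with the sequence results, and a match is only a run of letters. Gm44243 is a transcript still to be experimentally checked, 1700071M16Rik is an antisense RNA, and the windows of Gvin1, Ctc1 and Atxn1 lie in introns.
Gm44243 (chr6:129540560-129540760): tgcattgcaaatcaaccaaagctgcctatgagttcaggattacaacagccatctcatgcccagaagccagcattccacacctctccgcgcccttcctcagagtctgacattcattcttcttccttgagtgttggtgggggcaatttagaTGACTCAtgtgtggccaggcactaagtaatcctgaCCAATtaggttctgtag
Gvin1 (chr7:106213953-106214153): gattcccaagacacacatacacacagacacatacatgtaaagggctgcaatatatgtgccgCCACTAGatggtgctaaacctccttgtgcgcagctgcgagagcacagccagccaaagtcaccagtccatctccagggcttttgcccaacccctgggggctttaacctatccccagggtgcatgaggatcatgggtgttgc
1700071M16Rik (chr17:43592405-43592605): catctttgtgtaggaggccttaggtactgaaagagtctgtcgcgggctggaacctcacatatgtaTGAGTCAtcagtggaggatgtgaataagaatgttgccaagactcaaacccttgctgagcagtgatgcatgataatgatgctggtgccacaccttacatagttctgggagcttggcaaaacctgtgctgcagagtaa
Ctc1 (chr11:69028888-69029088): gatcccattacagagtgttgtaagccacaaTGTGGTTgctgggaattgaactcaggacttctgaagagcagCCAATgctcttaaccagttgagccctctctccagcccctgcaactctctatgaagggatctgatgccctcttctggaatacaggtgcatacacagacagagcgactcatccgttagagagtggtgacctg
Gm49471 (chr15:79065522-79065722): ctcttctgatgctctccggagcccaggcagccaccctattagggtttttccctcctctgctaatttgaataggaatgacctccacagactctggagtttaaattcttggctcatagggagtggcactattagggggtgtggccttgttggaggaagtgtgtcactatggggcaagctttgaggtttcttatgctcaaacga
Atxn1 (chr13:45872250-45872450): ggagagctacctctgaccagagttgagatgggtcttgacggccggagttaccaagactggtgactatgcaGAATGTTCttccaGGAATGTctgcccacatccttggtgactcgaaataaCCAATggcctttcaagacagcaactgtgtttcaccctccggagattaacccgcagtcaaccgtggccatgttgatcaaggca
The capitals mark an AP-1 and an NFY match in Gm44243, a CTCF-like match in Gvin1, an AP-1 match in 1700071M16Rik, an NFY and a RUNX match in Ctc1, and TEAD, NFY and HSF matches in Atxn1. The window of Gm49471 holds none of the motifs. The base composition of these windows was intermediate, from 47.3% GC in 1700071M16Rik to 53.7% in Gvin1.

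The 37C-only promoter regions were weak peaks. Height is given as fold enrichment, the ratio of the pileup at the summit to 1 background value for the whole genome, as the peak caller wrote it. The median over the 1208 regions was 2.81 in replicate 1, 3.07 in replicate 2, 3.16 in replicate 3 and 3.03 in replicate 4 at 37C. Promoter regions called in all 8 libraries had medians of 43.3, 47.8, 45.7 and 44.6 in the same order, and the medians over all peaks of each list were 5.69, 7.04, 7.42 and 5.59. The highest values among the 1208 regions were 8.93, 9.93, 9.97 and 10.4, so no member reached the typical height of an always-open promoter. Within their own lists the regions stood low. The mean percentile of their −log10 q over the 4 libraries had a median of 19.3 and a maximum of 61.2, and 3 regions lay in the upper 50% of all 4 lists.

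The distance of these heights from the threshold at 39C was modest. The weakest peak called in each 39C list had a fold enrichment between 1.90 and 2.14. At 37C, 1004 of the 1208 regions (83.1%) were above 2.14 in all 4 libraries. In both shallower libraries at 37C, 403 regions (33.4%) were above 1.5 times that value and 104 were above 2 times. The 67 regions above 2 times that value in all 4 libraries at 37C are those farthest from the limit of calling.

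**Figure D1:**
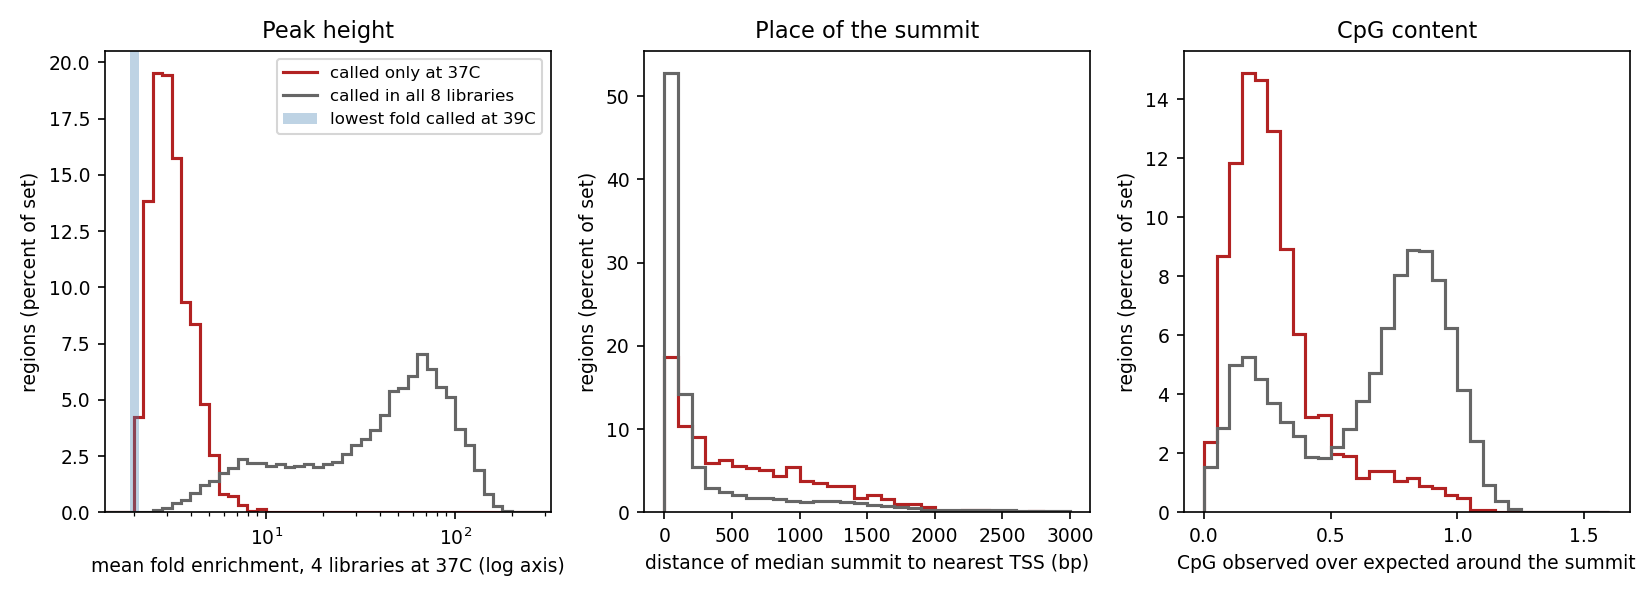
Share of regions by mean fold enrichment over the 4 libraries at 37C (left, log axis), by distance of the median summit to the nearest TSS in bp (middle) and by CpG observed over expected around the summit (right), for the 1208 promoter regions called only at 37C and the 16198 called in all 8 libraries. The 37C-only regions crowd just above the blue band, which spans the lowest fold called in the 4 lists at 39C (1.90 to 2.14), lie farther from start sites and are poor in CpG.

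Regions just outside the rule had similar heights. The 420 promoter regions called in 4 of 4 libraries at 37C and 1 of 4 at 39C had median folds of 3.47, 3.70, 3.71 and 3.70 at 37C, and 2.75 where called at 39C. The 919 called in 3 of 4 at 37C and 0 of 4 at 39C had medians of 2.32, 2.62, 2.80 and 2.44 over the libraries that called them. At the edge of the distance limit, 43 members lay 901 to 1000 bp from a TSS with a median fold of 3.35, and 38 regions with the same calls lay 1001 to 1100 bp away with 2.85. The numbers of calls formed a continuum, with 1022 and 1451 promoter regions called in 2 and in 1 libraries at 37C and none at 39C.

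**Figure D2:**
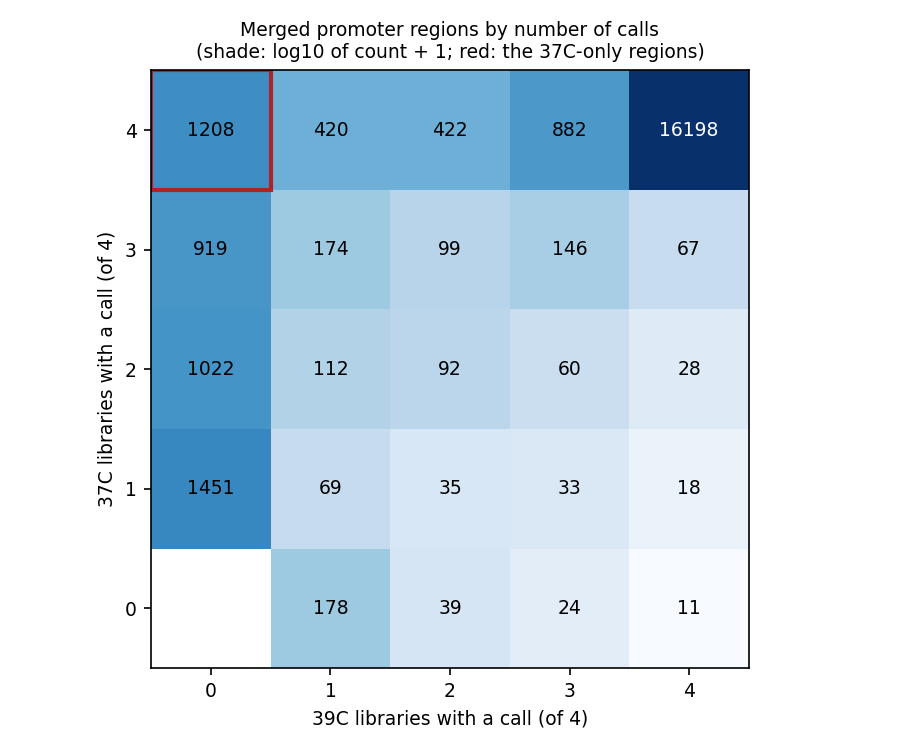
Number of merged promoter regions for each count of 37C libraries (vertical) and 39C libraries (horizontal) with a call, out of 4 each, with the 37C-only regions outlined in red. Calls in all 8 libraries make up 16198 regions, the 37C-only corner holds 1208 and the 39C-only corner holds 11.

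Depth and list length differed between the libraries. Replicates 1 to 4 at 37C had 169, 64.2, 49.8 and 158 M fragments (M for mega) left after filtering by the peak caller, and the 39C libraries had 52.7 to 71.2 M. There were 74026 to 92013 peaks per list at 37C and 54845 to 68410 at 39C. When each list was cut to its 54845 strongest peaks, 302 promoter regions were called only at 37C and 89 only at 39C. Of the 1208 regions, 106 (8.77%) overlapped 1 of those 302. When the 2 deepest libraries at 37C were left out, 1470 promoter regions were called only at 37C and 53 only at 39C, and 1102 of the 1208 (91.2%) overlapped 1 of the 1470. With a −log10 q of at least 5 in all lists 603 of the 1208 (49.9%) overlapped a 37C-only promoter region, and with windows around summits 673 (55.7%). Leaving out libraries relaxes the rule, so nearly all members had to be kept there and nothing is read from the 91.2%. Few members were kept without the weaker peaks of the longer 37C lists. The share that depth, the yield of open fragments and the conditions each had in the list lengths was not tested.

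**Figure D3:**
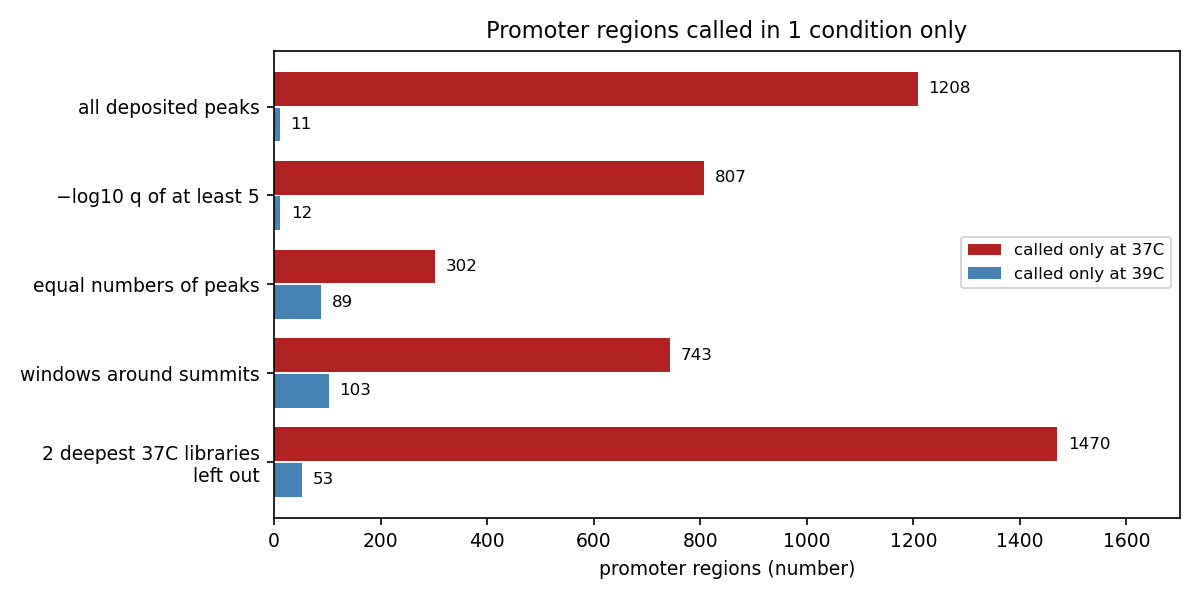
Number of promoter regions called only at 37C (red) and only at 39C (blue) with all deposited peaks and under 4 other ways of forming the regions. The 37C-only number exceeds the 39C-only number in each, by 1208 to 11 with all peaks and by 302 to 89 with equal numbers of peaks.

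The regions were narrower than always-open promoters and lay farther from start sites. Their median width was 1171 bp (range 321 to 13857 bp), against 2572.5 bp for promoter regions called in all 8 libraries and 871 bp for the distal regions called only at 37C. A TSS lay inside 757 of them (62.7%), against 89.8% of promoter regions called in all 8. The median summit lay a median of 493.5 bp from the nearest TSS, against 88 bp, and within 100 bp of one in 229 regions (19.0%), against 53.0%. The summits of the 4 libraries at 37C fell within 100 bp of each other in 388 regions (32.1%), with a median range of 189 bp.

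By annotation, 581 summits (48.1%) lay in introns, 175 (14.5%) in coding exons, 143 (11.8%) in untranslated regions, 118 (9.77%) in exons of non-coding transcripts and 191 (15.8%) outside genes. In promoter regions called in all 8 libraries, untranslated regions held 34.2% of summits and introns 27.1%. A TSS of a transcript in the basic set, the subset of GENCODE that leaves out partial transcripts, lay within 1 kb of 663 of the 1208 regions (54.9%). The other 545 were promoter regions through other transcripts alone. Among promoter regions called in all 8 libraries, 89.0% had a TSS of the basic set. Start sites on both strands lay near 4.97% of the 37C-only regions and near 21.6% of those called in all 8.

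The 1208 regions lay at 1210 genes, 5.42% of the 22327 genes with any promoter region. A gene was counted as left without a promoter call when no peak of any 39C library lay within 1 kb of any of its TSSs, and this held for 570 genes (2.55%). The other 640 kept a call at 39C, 579 of them in all 4 libraries. Of 898 protein-coding genes (5.96% of those with any promoter region), 301 (2%) were left without a call and 597 kept another. Non-coding genes were mostly left without a call, in 54 of 58 microRNA genes, 59 of 72 lincRNA genes, 46 of 51 antisense RNAs and 40 of 50 pseudogenes. A microRNA's start in this annotation is the end of its hairpin, not the start of its primary transcript. These shares follow from the calls that chose the regions, and nothing is read from them.

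The classes of coding genes are described next by where the region lay. A gene can keep a call mainly when it has another start away from the region, so the shares that follow are largely set by the definition. Among the 597 genes that kept a call, 526 (88.1%) had the region at a TSS more than 1 kb downstream of their most upstream TSS, a median of 12.6 kb downstream, and 457 had it only at transcripts outside the basic set. A promoter region called in all 8 libraries was kept by 563 of them (94.3%). Among the 301 genes left without a call, 45 (15.0%) had the region that far downstream, and 268 had it at a TSS of the basic set. For 17 of the 301, a merged region called in all 8 libraries still reached within 1 kb of a TSS through its 37C peaks.

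The best-placed coding gene left without a call was Gvin1, a very large GTPase induced by interferon. Its region at chr7:106213887-106214390 had fold enrichments of 8.93, 8.85, 8.15 and 10.4 in replicates 1 to 4 at 37C, with the summit in an intron 1257 bp downstream of the TSS. All 4 values were more than 3 times the highest threshold fold at 39C, and the nearest 39C peak lay 21508 bp away.

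Some of the 20 best-placed coding genes left without a call act in antigen presentation or are known from immune cells. Cd74, the invariant chain that escorts class II molecules, had folds of 4.94, 5.06, 4.62 and 4.85 at 37C. H2-Aa, an alpha chain of class II, had 3.86, 4.42, 4.99 and 5.36, and H2-Oa, an alpha chain of a class II-like regulator of peptide loading, had 4.09, 5.06, 4.86 and 5.12. The 3 sets of values overlapped and each stayed well above the threshold folds at 39C. At Cd74 a 39C peak lay 877 bp from the edge of the region, and at H2-Aa and H2-Oa the nearest lay 7921 and 6873 bp away. Laptm5, a lysosomal membrane protein of blood cells, had 5.07, 4.61, 5.72 and 6.66, with its summit in an intron. The region of Laptm5 lay at the start of a transcript outside the basic set. Acp5, the tartrate-resistant acid phosphatase known from osteoclasts, had 4.28, 4.61, 3.89 and 5.24.

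Genes of detoxification and metabolism included 2 glutathione S-transferases. Gstm2 had folds of 6.61, 6.32, 6.32 and 6.62 with its summit 16 bp upstream of the TSS. Its 4 values were the closest together among the 3 best-placed coding genes left without a call. Gstp3 had 4.71, 4.52, 5.23 and 4.69, but its wide region had the summit 2591 bp downstream of the TSS and outside the gene, so the peak was not at its start. Aldoc, the aldolase of brain, had 4.19, 5.24, 4.86 and 4.53 with its summit in an untranslated region 100 bp downstream of the TSS. Slc23a4, of the family of nucleobase and ascorbate transporters, had 4.58, 4.61, 4.74 and 3.66, with replicate 4 apart from the others. Its summit lay in an intron, at the start of a transcript outside the basic set.

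Among these genes, Tmprss11f and Padi3 are best known from skin and other epithelia. Tmprss11f, a membrane-anchored serine protease, had 6.41, 6.50, 6.57 and 7.01, and a 39C peak lay 663 bp from the edge of its region but more than 1 kb from the TSS. Padi3, which converts arginine to citrulline in hair follicles, had 4.91, 5.60, 5.11 and 5.87 at an intronic summit. Both regions stayed members when all lists were cut to equal length.

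Neuronal genes in this part of the list were Glra1, a subunit of the glycine receptor, and Sncg, gamma-synuclein. Glra1 had folds of 3.96, 5.78, 5.35 and 4.92, with replicate 1 lowest and its summit 157 bp upstream of the TSS. Sncg had 4.15, 4.79, 4.38 and 4.69 in a region of chr14:34371149-34377026 that it shared with Mmrn2, an extracellular matrix gene of endothelium, so the call cannot be given to either gene alone. The region lay over both start sites.

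The remaining best-placed coding genes had mixed roles. Rnf39, a RING finger protein, had 4.94, 5.51, 6.45 and 5.56, and Arl5c, an ARF-like small GTPase, had 5.00, 5.33, 5.59 and 5.44. Tubg2, a gamma-tubulin, had 4.84, 5.60, 5.11 and 5.20 at a CpG-rich start (CpG observed over expected of 0.70). Zar1, an oocyte factor of the egg-to-embryo transition, had 4.45, 4.79, 4.26 and 5.24, and Tulp2, a tubby-like protein, had 4.28, 4.33, 5.11 and 4.29. The summits of Arl5c, H2-Oa, Padi3 and Acp5 lay 1141, 1231, 1394 and 1675 bp downstream of the TSS, farther than the others of the 20 apart from Gvin1, Gstp3 and Mmrn2. Of these 20 best-placed coding genes, 18 still had a 37C-only promoter region and no 39C promoter call when all lists had equal length. Acp5 and Slc23a4 did not. The genes were chosen for high placement in the 37C lists and the shortening removes the lowest-placed peaks, so this count follows largely from the choice.

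**Figure D4:**
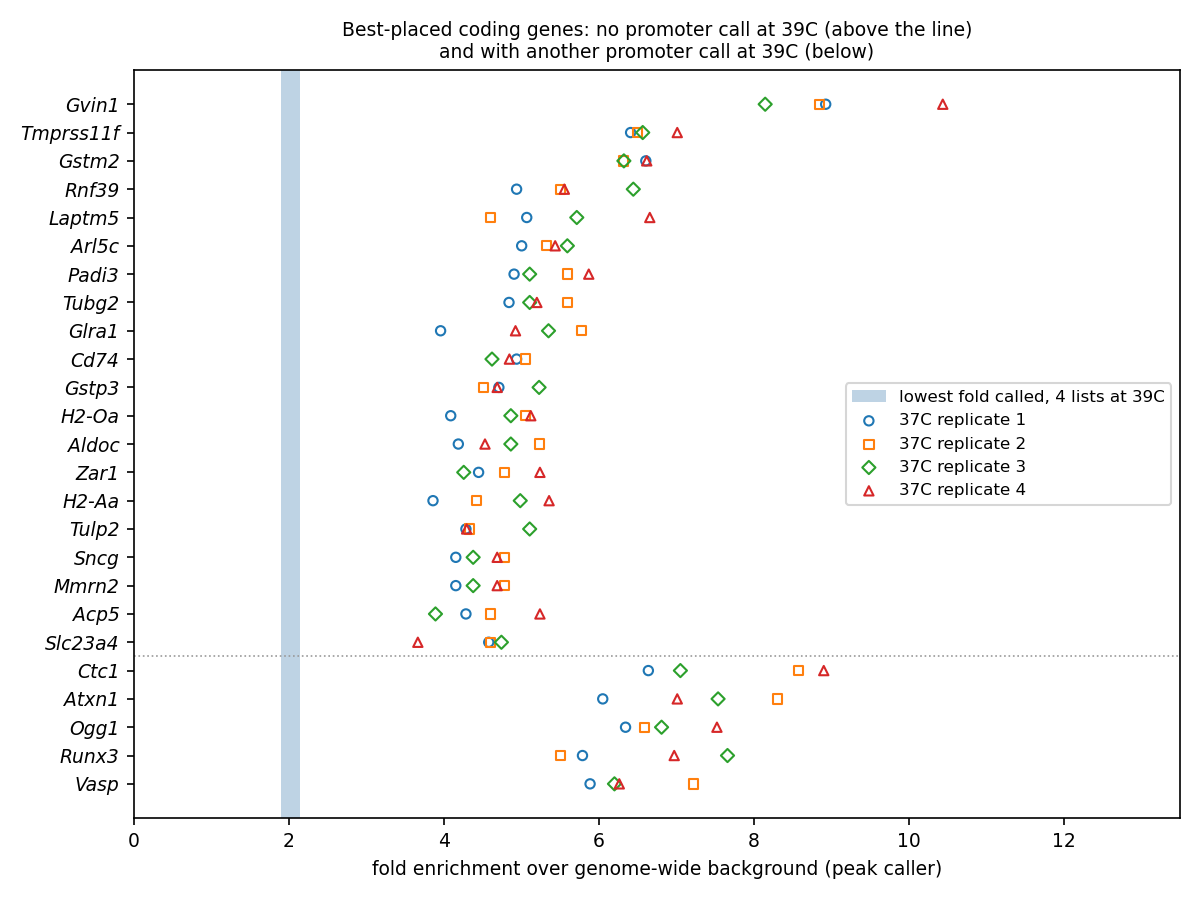
Fold enrichment in each of the 4 libraries at 37C (symbols) for the 20 best-placed coding genes left without a promoter call at 39C (above the dotted line) and the 5 best-placed that kept another call (below). All values lie to the right of the band of lowest folds called in the 4 lists at 39C (1.90 to 2.14), from 3.66 in Slc23a4 to 10.4 in Gvin1.

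Known roles were then given to 133 of the 301 coding genes left without a call, in groups written after the names had been seen, so the groups carry no test and no background, and 168 genes were in none. Separate lists of markers had a member at 0 of 2 immune, 0 of 4 epithelial and 0 of 2 skeletal muscle genes with a promoter region. The groups are named for the tissue or process the genes are best known from, and their mean folds ran from 2.10 to 6.62.

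Of 13 muscle genes, none stayed a member with lists of equal length, and their median mean fold was 2.94. They included Des, the intermediate filament desmin, with folds of 3.17, 3.70, 3.28 and 4.26, and Myl7, an atrial myosin light chain, with 3.50, 3.97, 3.77 and 3.59. Ryr1, the calcium release channel of skeletal muscle, spread more widely, with 1.90, 3.79, 3.41 and 2.21. The low values of Ryr1 were those of the 2 deepest libraries. The regions of Des and Ryr1 lay inside these genes, at starts of transcripts outside the basic set. Chrnd and Chrng, the delta and gamma subunits of the muscle acetylcholine receptor, lie next to each other on chromosome 1 and had mean folds of 2.78 and 2.79.

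Of 32 immune and blood genes, 4 stayed members and left without a call with equal lists, namely Cd74, H2-Aa, H2-Oa and Laptm5, and the group median was 3.13. The weaker ones included Tal1, a transcription factor of blood formation, with 3.57, 2.71, 3.89 and 2.60 and Il23a, a cytokine subunit, with 2.98, 2.89, 2.80 and 3.55. Aire, the regulator of self-antigen expression in thymus, shared its region with Dnmt3l, a cofactor of DNA methylation in germ cells, at 2.42, 2.35, 3.04 and 2.56.

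Of 19 genes of early embryo and germline, Zar1 alone stayed with equal lists, and the group median was 2.91. The signalling genes Nodal, Lefty1 and Lefty2, of which the last 2 encode inhibitors of the first, had mean folds of 2.23, 3.06 and 3.14. Pou5f1, the pluripotency factor, had 2.81, 2.62, 2.55 and 3.03, and Fgf4 had 2.52, 2.89, 3.77 and 2.44. The region of Pou5f1 lay inside the gene, at the start of a transcript outside the basic set. The inhibitors stood above the ligand, and the 4 values of Nodal (1.77, 2.35, 2.55 and 2.25) crossed the band of lowest folds called at 39C.

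Of 34 neural genes, Aldoc, Glra1 and Sncg stayed with equal lists, and the group median was 2.94. Transcription factors of neuronal subtypes had mean folds near the group median, at 3.24 for Barhl1, 3.04 for Barhl2, 2.91 for Bhlhe22 and 2.90 for Phox2a. The region of Phox2a lay inside the gene, at the start of a transcript outside the basic set. Enzymes of catecholamine synthesis were represented by Dbh, which makes noradrenaline from dopamine, at 2.52, 2.08, 2.68 and 2.64, and by Pnmt, which makes adrenaline, at a mean of 2.47. For Dbh, the region lay inside the gene, within 1 kb of the start of a transcript outside the basic set. The region of Pnmt was also that of the muscle gene Tcap, and it did not reach the TSS of Pnmt. A merged region called in all 8 libraries also reached within 1 kb of a TSS of Pnmt. Neither Dbh nor Pnmt was a member without the 2 deepest libraries at 37C. Receptors included Cnr1 for cannabinoids (mean fold 3.09), Oprd1 for opioids (3.28) and Htr7 for serotonin (2.72).

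In the smaller groups, the 16 epithelial and skin genes had a median of 2.93, the 8 genes of eye and ear 3.21, and the 8 hormones and secreted peptides 3.09. The latter included Lep, the fat-cell hormone leptin, with 4.02, 3.34, 3.04 and 3.35. Prothrombin and coagulation factors VII and X (F2, F7 and F10), made in liver, had the lowest median, 2.50. None of the coagulation or hormone genes stayed a member with equal lists.

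**Figure D5:**
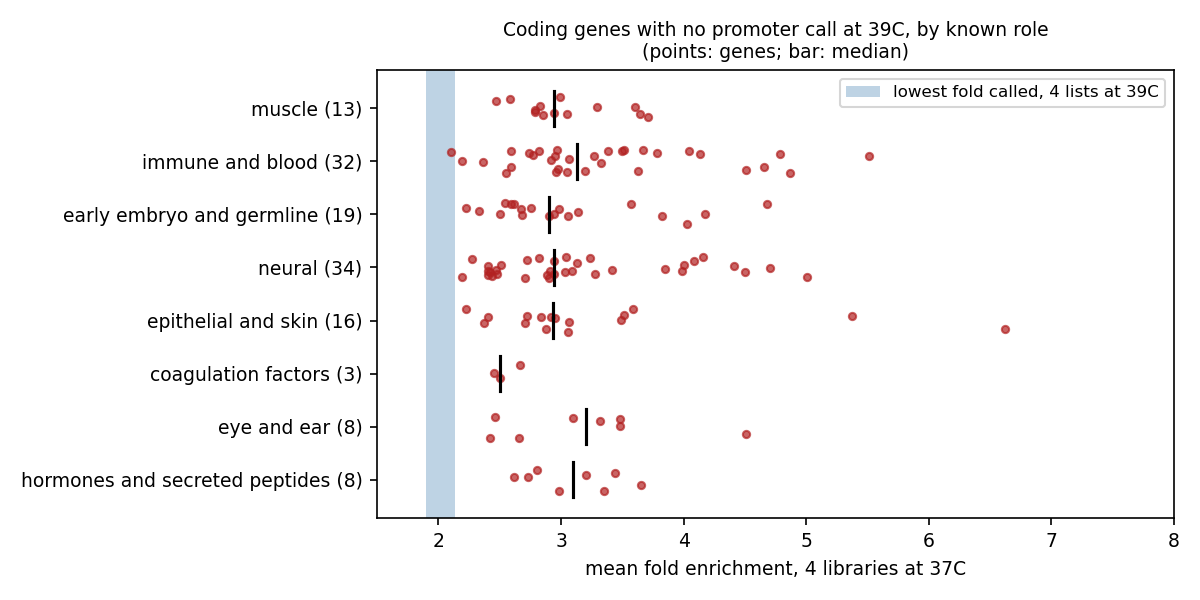
Mean fold enrichment over the 4 libraries at 37C of coding genes left without a promoter call at 39C, grouped by known role, with the number of genes in parentheses, 1 point per gene and a bar at each median. Group medians run from 2.50 (coagulation factors) to 3.21 (eye and ear), close to the band of lowest folds called at 39C (1.90 to 2.14), with single genes above 5.

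Lists of genes for pathways and families were also read against the shares over all coding genes, 5.96% with a 37C-only promoter region and 2% left without a call. Cell-cycle lists held too few members to be told apart from those shares. Of 39 DNA replication genes 2 had a region and 0 were left without a call, of 32 mitosis genes 1 and 0, and of 24 genes of G1 and arrest 1 and 0. The regions lay at transcripts outside the basic set of Pold1, the catalytic subunit of DNA polymerase delta, Gins2, a part of the replicative helicase, Top2a, topoisomerase II alpha, and E2f2. All 4 genes kept a promoter region called in all 8 libraries. Their mean folds at 37C were 2.23 for Pold1, 2.47 for Gins2, 3.30 for Top2a and 3.17 for E2f2.

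Of 31 serum response and immediate early genes, the serum response factor gene Srf alone had a region. It had folds of 4.61, 5.42, 4.38 and 4.37 in an intron, and Srf kept a promoter region called in all 8 libraries. No gene had a region among 19 YAP and TEAD targets, 33 BMP and TGF-beta genes, 23 p53 targets, 28 heat shock and chaperone genes, 26 interferon response genes, 26 cytokines and chemokines or 11 dopaminergic neuron markers with a promoter region. The lists do not hold every gene of a class. Members outside them include Nodal, Lefty1 and Lefty2 of the TGF-beta family, the cytokine genes Il13, Il17c and Il23a, and the interferon-induced Gvin1. No direction is read from counts this small.

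Signalling and guidance lists held a few members each. Of 38 growth factor and receptor genes with a promoter region, 4 had a member (10.5%), of which Erbb4 (mean fold 2.42) and Fgf21 (3.35) were left without a call. Fgfr3 was called at another start in 4 of 4 libraries at 39C, but Ntrk3 in 1 of 4. Fgf21 shared its region with Fut1, and the non-coding genes Gm16076 and Gm9885 lay at those of Erbb4 and Ntrk3. Among Notch and Hedgehog genes, Dll3 and Gli1 had one, among 38 Wnt genes Wnt6 had one (2.63%), and these genes kept a promoter call. Of 41 axon guidance genes 4 had one (9.76%), and Slit1, a secreted repellent, with 1.96, 2.80, 2.68 and 2.17, and Efnb3, an ephrin, with 2.42, 2.53, 2.68 and 2.4, were left without a call. Plxna3 and Plxnd1, receptors of semaphorins, kept theirs. Shares from so few genes are a description.

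Of 31 proneural and neuronal transcription factors, Neurog1 and Olig1 had a region and both were left without a call. Barhl1, Barhl2, Bhlhe22 and Phox2a, described above, are factors of the same kind that this list does not hold. Neurog1, a basic helix-loop-helix factor that starts neuronal differentiation, had folds of 1.80, 2.62, 2.68 and 2.01, and Olig1, a factor of oligodendrocyte development, had 2.29, 2.35, 4.13 and 2.99. Both regions were CpG-rich (observed over expected of 0.77 and 0.96) and the region of Neurog1 spanned its TSS while that of Olig1 lay just inside the gene. In replicate 1 the value of Neurog1 was below the lowest fold called in any 39C list, so no 39C list holds a peak that low.

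Lists of neuronal function also held few members. Of 25 synaptic release genes, Vamp1 and Slc17a7 had a member and neither was left without a call, and of 18 glutamate and GABA receptor genes the same was true of Grin2d and Gabbr2. Slc17a7 and Gabbr2 were each called in 3 of 4 libraries at 39C. With equal lists Slc17a7 stayed a member and was left without a call, while Vamp1, Grin2d and Gabbr2 were no longer members. Of 27 sodium and calcium channel genes, Cacnb1 kept a call and Cacng3, an auxiliary subunit that also escorts AMPA receptors, was left without one, with 3.27, 4.61, 5.72 and 4.06. Of 37 genes of extracellular matrix and proteases, Ncan (2.94, 2.53, 2.92 and 3.39) and Tnxb (2.39, 2.80, 3.04 and 2.32) were left without a call and Lamc3 was not. Lamc3 was called at 39C in 3 of 4 libraries, and with equal lists it too was left without a call. Cacnb1, Cacng3, Ncan and Tnxb were no longer members with equal lists. Ncan was also no member without the 2 deepest libraries at 37C. Of the 31 genes named from the pathway and marker lists, 3 stayed members with equal lists.

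Among families named by symbol, 26 of 277 solute carriers had a member (9.39%) and 12 were left without a call. Semaphorins had 5 of 20 (25.0%), with Sema4f left without a call. Symbols beginning with Itg had 5 of 22, which were Itga3, Itga10, Itga11, Itgb4 and Itgb1bp2, the last a muscle protein that binds an integrin and not an integrin. Adhesion G protein-coupled receptors had 4 of 16, with none left without a call. Low shares were found in zinc finger proteins, with 4 of 350 (1.14%), ribosomal proteins, with 0 of 80, and histone genes, with 0 of 64. Interleukins and their receptors had 5 of 49, with Il13, Il17c, Il17re and Il23a left without a call. The families were read with earlier results known, and counts this small are a description.

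The 5 best-placed coding genes that kept another promoter were chosen, like the 20 above, for high placement at 37C. Ctc1, of the complex that protects telomeres, had 6.64, 8.58, 7.05 and 8.90, and Atxn1, the gene of a polyglutamine ataxia, had 6.05, 8.31, 7.54 and 7.01, both in introns at transcripts outside the basic set. Ogg1, a glycosylase that removes oxidised guanine, had 6.35, 6.59, 6.81 and 7.53 in a coding exon. Vasp, a regulator of actin filaments, had 5.89, 7.22, 6.20 and 6.26. Runx3, a Runt-family transcription factor, had its region at a basic-set TSS of its own, at 5.79, 5.51, 7.66 and 6.97. The regions of Vasp and Runx3 also lay at basic-set starts of non-coding genes, 1700058P15Rik and Gm16225, which were left without a call, so neither region can be given to the coding gene alone. All 5 genes were called at other start sites in 4 of 4 libraries at 39C, and all 5 regions stayed members with equal lists.

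The strongest non-coding member was Gm44243, with folds of 8.67, 9.93, 9.97 and 9.89, the highest mean percentile of all (61.2). 1700071M16Rik had 8.50, 7.50, 7.18 and 10.2, and Gm13055, also an antisense RNA, had 6.93, 6.14, 5.96 and 8.63. Mir7074, whose hairpin lies in the region, had 7.0, 6.95, 7.66 and 6.82, with a 39C peak 698 bp away. Gm49471 had 7.26, 7.13, 7.30 and 7.60 and kept a call at 39C in 4 of 4 libraries. With equal lists, 59 of the 570 genes were again left without a call, of which 20 were protein-coding and 39 were not.

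The sequence of the regions was poor in CpG for promoters. CpG observed over expected, which is about 1 where CpG is not depleted, was taken within 250 bp on each side of the summit. Its median was 0.24 in the 1208 regions, 0.73 in promoter regions called in all 8 libraries and 0.19 in distal regions called only at 37C. Values above 0.6 were found in 111 of the 1208 regions (9.19%), in 62.7% of promoter regions called in all 8 and in 1.20% of the distal ones. Regions at coding genes left without a call were higher, with 74 of 308 above 0.6 (24.0%), and regions without a TSS of the basic set were lower (2.02%). GC content over the whole region had a median of 54.6%, against 51.9% in promoter regions called in all 8, but within 100 bp of the summit the order was reversed, at 55.7% against 64.2%.

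Motifs were searched within 100 bp of the summit on both strands, and motifs typical of CpG-rich promoters were less frequent than over all 23707 promoter regions. The SP/KLF motif (GGGCGG) was found in 16.4% of the 1208 regions against 37.4%, ETS (CCGGAAG) in 1.90% against 7.47%, NFY (CCAAT) in 16.9% against 22.9%, NRF1 (CGCATGCG) in 0.41% against 1.39%, CRE (TGACGTCA) in 0.41% against 1.43%, E-box (CACGTG) in 3.64% against 5.19%, E2F (TTTNGCGC) in 0.66% against 1.08% and YY1 (AAGATGG) in 2.90% against 4.25%. At coding genes left without a call the SP/KLF share was 27.0%. The other motifs were nearer to the share over all promoter regions. AP-1 (TGANTCA) was found in 14.0% against 13.7%, TEAD (ACATTCC) in 4.22% against 3.44%, RUNX (TGTGGTT) in 4.80% against 5.26%, the CTCF-like string (CCACNAG) in 15.8% against 14.3%, SOX (ACAATGG) in 2.4% against 1.86%, forkhead (TGTTTAC) in 1.74% against 1.78%, HSF (GAANNTTC) in 3.56% against 3.40% and the SRF CArG box in 0.58% against 0.69%. In distal regions called only at 37C, AP-1 was found in 22.4% and TEAD in 8.59%. A TATA box (TATAAA), searched 20 to 40 bp upstream of a TSS, was found for 1.24% of the regions, 3.25% of those at coding genes left without a call and 1.62% of all promoter regions. Matches of different motifs can share bases and were counted under each.

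The nearest open chromatin at 39C was often a few kb away. A 39C peak lay within 5 kb of 804 regions (66.6%), at a median distance of 3328 bp over all 1208, and a region called in all 8 libraries lay within 5 kb of 717 (59.4%). The latter share was 29.3% when peaks had to cover at least 50% of a region and 33.8% with windows around summits. For distal regions called only at 37C, 62.6% had a 39C peak within 5 kb. The 688 all-8 regions nearest to a member were ranked by −log10 q among all-8 regions. Their median percentiles were 62.7 to 64.0 in the 4 libraries at 37C and 60.6 to 61.4 at 39C. These ranges did not overlap, and the medians at 39C were slightly lower. For all promoter regions called in all 8 they were 76.3 to 77.5 and 76.3 to 77.2.

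The regions were spread unevenly over chromosomes. They made up 7.87% of the promoter regions of chromosome 17, 7.80% of chromosome 15 and 7.36% of chromosomes 11 and 19, and 1.89% of chromosome 13 and 2.01% of chromosome X. The densest group was 6 regions at chr15:76612407-76651899, over Slc39a4, a zinc importer, Tonsl, a protein of replication fork repair, and Cyhr1. Of these, Slc39a4 was left without a promoter call at 39C. The line is polyploid, and copy number by chromosome was not measured here.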

How the data were processed

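ATAC-seq peak lists of 8 SN4741 libraries were analysed, 4 per group, with groups taken from the sample titles. The authors aligned paired reads to mm10 in local mode, and the submitters' processing notes name Bowtie2 2.4.1, SAMtools 1.15.1, Picard 2.26.11, MACS3 3.0.0a7 and bedtools 2.30.0. Per the file headers, peaks were called for each library alone with MACS3 at a q-value of 0.05, without a control and without a local background, and with 1 fragment kept per position, which dropped 15.4% to 37.3% of the fragments read. The deposited lists give for each peak the pileup signal (fragments at the summit, not scaled for depth), the fold enrichment (a ratio of that pileup to 1 background value per library), as well as −log10 of the p-value and of the q-value, all made by the authors' peak caller. They hold no read counts at regions without a call. The study's methods describe the removal of regions prone to artefacts, which could not be seen in the lists.

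Peaks were merged with Python 3.11.15, numpy 2.4.6 and pandas 2.3.3. The best peak of a library in a region was that with the highest −log10 q. TSSs came from GENCODE M21 and bases from RefSeq's GRCm38.p6, and coordinates count from 1. The merging and the rule were tested on simulated peaks with known calls. Precision is set by 49.8 to 169 M fragments kept per library.

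The regions and gene lists were chosen with earlier results of these data known. Named genes are the 20 best-placed protein-coding genes with an approved-style symbol that were left without a promoter call, the 5 best-placed that kept one, the 5 best-placed non-coding genes and every protein-coding gene of the pathway lists with a region. 1 gene that met this rule is not reported here. Placement is by the mean percentile of −log10 q over the 4 libraries at 37C. The gene groups by known role, their members and the families discussed were chosen after the values were seen. Counts were repeated with other peak thresholds, equal list lengths, 50% coverage, summit windows, other TSS sets and distances, other numbers of libraries, and without chromosome Y or single libraries.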

Additional observations from a re-analysis of the deposited data

Results flagged for a closer look

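In 5 of 66 sets of 4 values at 37C, 1 library stood apart from the other 3 by a gap that chance gives in about 1 of 20 sets. The fold enrichment of Tulp2 was 5.11 in replicate 3, against 4.28 to 4.33 in the others. That of Slc23a4 was 3.66 in replicate 4, against 4.58 to 4.74. Gm44243 had 8.67 in replicate 1, against 9.89 to 9.97. Grin2d had 3.41 and Ntrk3 2.68 in replicate 3, against 2.39 to 2.53 and 2.09 to 2.17. Replicate 3 held the value apart in 3 of the 5 sets, and it was the shallowest library at 37C, with 49.8 M fragments kept. Whether its depth has a part in this was not tested.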

How the results depend on the processing

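No paired analysis was possible because the results come from no test. Leaving out each library in turn gave 1222 to 1791 regions, 1223 to 1733 genes with a region and 577 to 842 genes left without a promoter call. Of the 23 alternatives, the number of regions stayed within 1.5 times the main 1208 in 16, the number of genes within 1.5 times 1210 in 16, and the number left without a call within 1.5 times 570 in 18. Leaving out chromosome Y, which holds no member, could not change these numbers, and leaving out libraries relaxes the rule, so neither bears on stability. A similar count can hold other regions, since at a −log10 q of at least 5 in all lists 603 of the 1208 regions and 300 of the 570 genes were shared. The exceptions follow, as regions, genes with a region and, where it moved by that much, genes left without a call. Requiring a −log10 q of at least 5 at 37C only gave 604, 634 and 300. Equal numbers of peaks gave 302, 328 and 178. Windows of 100 bp on each side of summits gave 743 and 768, and a distance of 5 kb gave 2626 and 2987. Basic transcripts gave 663 and 711, and protein-coding transcripts gave 544, 544 and 302. At least 3 of 4 libraries at 37C gave 2127, 2022 and 998, and 50% coverage of the region left 373 genes without a call. Median GC ranged from 53.4% to 55.7%, and the share within 5 kb of a region called in all 8 from 29.3% to 62.9%, lowest with 50% coverage. Promoter regions called only at 39C, counted under 4 alternatives chosen after seeing the data, numbered 11 with all peaks, 12 at −log10 q of at least 5 in all lists, 53 without the 2 deepest 37C libraries, 89 with equal lists and 103 with summit windows. Among the alternatives compared by overlap, equal lists kept the fewest members, and the cause was not tested. The lists hold no height below each list's threshold, which limits any statement on how far a region closed at 39C.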
